A study of Saccharomyces cerevisiae with 6 samples.

Results

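The proteasome subunit genes of budding yeast, Saccharomyces cerevisiae, were described in sporulating cultures of a bas1 mutant, an ino4 mutant and wild type (WT). They were taken by name from the authors' table of transcript levels: SCL1, SEM1, RPN4 and every entry with a single name of the PRE, PUP, RPN or RPT series. This gave 35 genes of 6932 entries, made up of 33 subunit genes, the assembly chaperone gene RPN14 and RPN4, which encodes the regulator of the others. All 35 genes were present as single entries and could be compared. The cells of all 3 genotypes were placed in 2% potassium acetate at 30 °C and collected after 4 h in meiosis, 15 OD units per sample, with 2 samples for each. The transcription factor Bas1 activates genes of purine and histidine synthesis, and Ino4 acts with Ino2 on genes of phospholipid synthesis. The sources used here do not give strain background, ploidy or the kind of mutation.

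The proteasome degrades proteins that carry ubiquitin chains. Its core particle is a barrel of alpha rings, which gate the entrance, and beta rings, which hold the proteolytic sites. The regulatory particle caps the core and consists of a base with ATPases that unfold substrates and a lid that removes ubiquitin. Rpn4 is a short-lived transcription factor that binds a promoter element shared by proteasome genes and is itself degraded by the proteasome. In meiosis, ubiquitin-dependent degradation is required for chromosome segregation, where the anaphase-promoting complex attaches the ubiquitin.

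The known Rpn4 element, GGTGGCAAA, stood in the 300 bases before the start codon of 27 of the 33 subunit genes, on either strand, in the RefSeq reference genome R64. It stood before 1.21% of all protein-coding genes (73 of 6020) in windows of the same length. All 35 genes were matched by symbol, and RPN14 and RPN4 themselves did not hold these letters in the window. The element was found before 12 of 14 core genes and 15 of 19 regulatory particle genes, once in each, and 19 of the 27 copies lay on the gene's own strand. Its distance to the start codon was 75 to 174 bases with a median of 111. The 8 stretches of 29 bases that follow have the motif in capitals and run 5′ to 3′ along the motif's strand. They belong to the genes with the motif that had the highest and the lowest difference between bas1 and WT in the alpha ring (PRE10, PUP2), the beta ring (PRE3, PRE7), the base (RPT1, RPT3) and the lid (RPN7, RPN11). The copies of RPT1 and RPN7 lie on the strand opposite to the gene.
PRE10: cctctaaatcGGTGGCAAAaataagaaag
PUP2: aaccaagaccGGTGGCAAAagagtaacct
PRE3: aacggaatccGGTGGCAAAaaagggaaaa
PRE7: aaactcaaagGGTGGCAAAaacaagcggt
RPT1: ttagttttcgGGTGGCAAAattcggtaat
RPT3: ctgaaagtaaGGTGGCAAAatagtaaatc
RPN7: atcctcaatgGGTGGCAAActtaacttat
RPN11: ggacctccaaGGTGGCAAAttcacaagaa
Of the alpha ring genes shown, PRE10 was higher in bas1 than in WT (0.23 on the log2 scale defined with the values). PUP2 was lower (-0.23). Both were picked as the extremes of their ring, so this contrast follows from the choice and says nothing about the motif. The subunit genes without a match were PRE5, PUP1, RPN8, RPN10, RPN13 and SEM1. The shorter word GGTGGCA, which is contained in the full motif, occurred before the same number of subunit genes (27) and before 2.71% of all genes. R64 is the genome of the reference strain S288C, and the table's own build is sacCer2, so its positions were not used for these windows.

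The table holds 1 value per gene and genotype, in FPKM, the fragments counted on a gene divided by its length and by the size of the library, which makes it a level per length. How far the 2 samples of each genotype lay apart is unknown, as is the number of reads, so no difference has a replicate check and no test could be made. Differences are given on the log2(FPKM + 1) scale, and the median of all 6153 entries compared lay within 0.01 of 0 in each comparison. Entries were compared when they reached an FPKM of 1 in at least 1 genotype and were above 0 in all. BAS1 had an FPKM of 0.00985 in bas1, 21.1 in ino4 and 19.4 in WT, and INO4 had 0.339 in ino4, 271 in bas1 and 307 in WT. The 8 meiotic marker genes were all expressed, with IME1 at 7959 in bas1, 6261 in ino4 and 7919 in WT. Of the genes that diploids keep off, STE2, STE3 and HO lay at or below 23.6 in every genotype, whereas MFA1, an entry of 111 bp, had an FPKM of 248 in bas1, 607 in ino4 and 335 in WT.

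Subunit transcripts were abundant in all 3 genotypes. The median level of the 33 subunit genes was 709.8 FPKM in bas1, 659 in ino4 and 636 in WT, against 53.6 in bas1, 53.6 in ino4 and 53.5 in WT over all entries compared. In bas1 all 33 lay in the highest 10% of entries, and in ino4 and WT 32 of 33 did, with RPT5 below that limit in both. The highest was SEM1, a small lid subunit (1876 in bas1, 2271 in ino4 and 2298 in WT), and the lowest was RPT5, an ATPase of the base (362 in bas1, 344 in ino4 and 307 in WT). The highest level was 5.19 times the lowest in bas1, 6.60 times in ino4 and 7.48 times in WT. Without SEM1, whose entry is only 270 bp long, these ratios were 5.00, 4.18 and 4.89. The 135 cytoplasmic ribosomal protein genes, which encode another large complex, had median levels of 47.5 in bas1, 49.7 in ino4 and 45.9 in WT. The 32 autophagy and vacuolar protease genes had medians of 116 in bas1, 133 in ino4 and 134 in WT. Many ribosomal protein genes have a near-identical copy, and how reads were shared between copies is unknown.

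**Figure D1:**
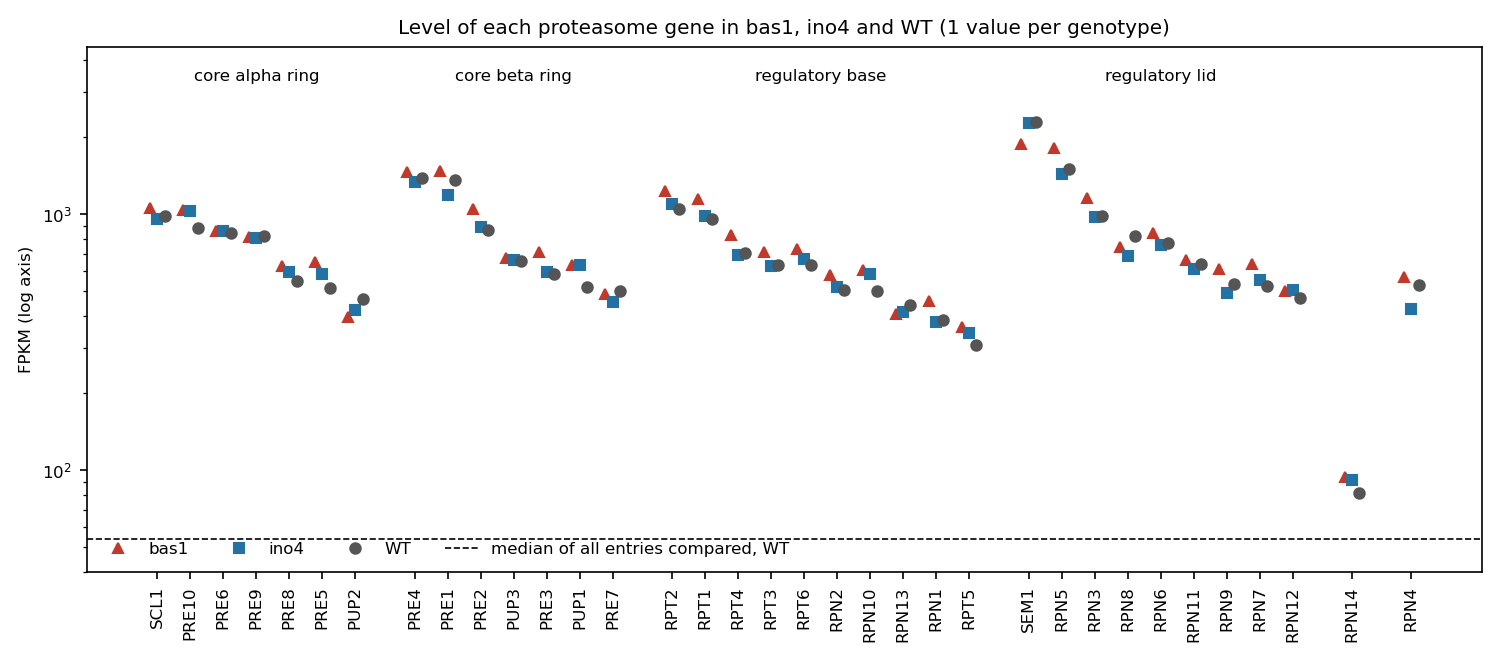
FPKM (log axis) of each proteasome gene in bas1 (triangles), ino4 (squares) and WT (circles), 1 authors' value per genotype, with the median of all entries compared in WT as a dashed line. The 33 subunit genes lie between 307 and 2298, and RPN14 lies between 81.1 and 94.0.

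Against WT, most proteasome genes had a slightly higher value in bas1. Of the 35 genes, 29 were higher in bas1 than in WT, against 50.6% of all entries, and the median difference was 0.19, a ratio of 1.14, against 0.01 over all entries. The differences were small, from -0.29 to 0.33. None of the 35 was 1.5-fold apart in either direction, where 3.98% of all entries were at least 1.5-fold higher and 7.33% at least 1.5-fold lower. None was 2-fold apart either (0.975% higher and 2.34% lower over all entries). With the values rescaled to a common total, as in TPM, 32 of 35 were higher in bas1, against 65.2% of all entries, and the median of all entries moved to 0.13. On the authors' scale, the bas1 mutant was also the genotype with the highest of the 3 values for 24 of the 33 subunit genes, against 38.1% of all entries.

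In ino4 the same genes lay on both sides of WT. Of the 35 genes, 17 were higher in ino4, against 49.4% of all entries, and the median difference was -0.01 (0.00 after rescaling to a common total), against -0.00 over all entries. The differences ran from -0.31 (RPN4) to 0.29 (PUP1), and none was 1.5-fold apart, where 2.32% of all entries were at least 1.5-fold higher and 4.62% at least 1.5-fold lower. No gene was 2-fold apart (0.683% higher and 1.76% lower over all entries). Set directly against ino4, bas1 was higher for 29 of the 35 genes, against 50.0% of all entries, with a median of 0.12 and a range of -0.28 (SEM1) to 0.41 (RPN4). None was 1.5-fold apart (6.79% higher and 8.22% lower over all entries) or 2-fold apart (2.78% higher and 2.78% lower). After rescaling to a common total, 34 of 35 were higher in bas1 than in ino4, against 63.8% of all entries. The comparisons with WT share the WT values, and those with bas1 share the bas1 values, so they are not separate results.

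**Figure D2:**
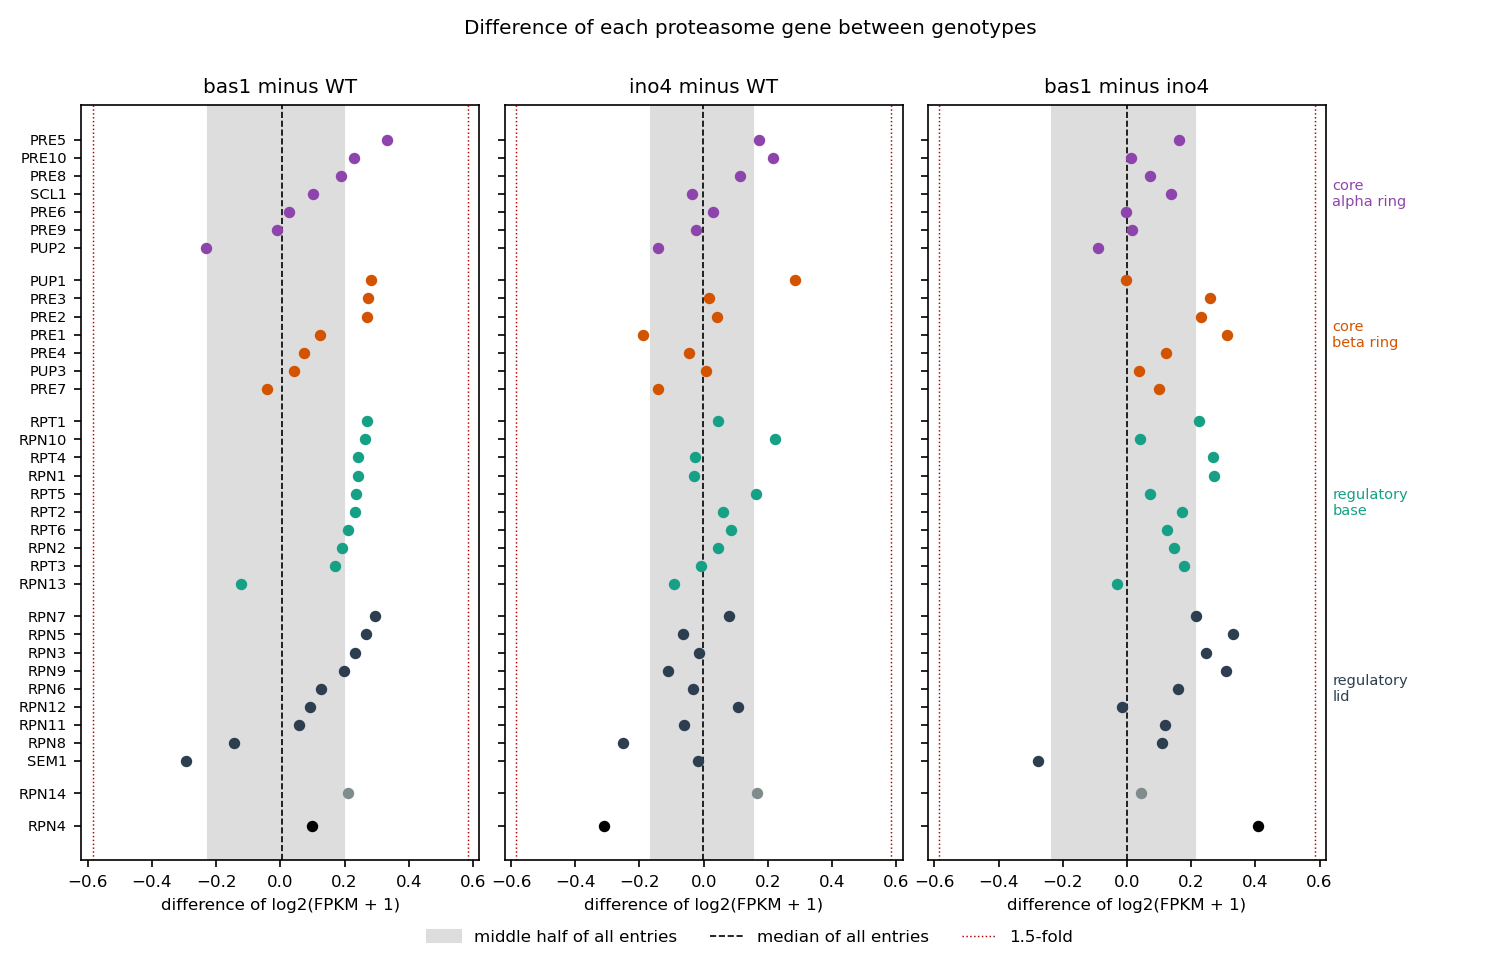
Difference of log2(FPKM + 1) for each of the 35 genes in the 3 comparisons, by ring and particle, with the median and the interquartile range of all 6153 entries (grey) and the 1.5-fold limits (dotted). In bas1 minus WT most genes lie to the right, near the upper edge of the grey band, and in ino4 minus WT they lie around the median.

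In the alpha ring of the core, 5 of 7 genes were higher in bas1 than in WT, against 50.6% of all entries. The ring's median difference was 0.10. PRE5, encoding the sixth alpha subunit, had the largest difference of all 35 genes, with 649.9 FPKM in bas1, 581 in ino4 and 516 in WT (bas1 minus WT 0.33). PRE10, encoding the seventh alpha subunit, had 1033 in bas1, 1024 in ino4 and 881 in WT. Both mutants were thus above WT at these genes, by similar amounts at PRE10 (0.23 in bas1 and 0.22 in ino4). PUP2, encoding the fifth alpha subunit, differed the other way, with 396 in bas1, 422 in ino4 and 466 in WT (-0.23 in bas1 and -0.14 in ino4). PRE9, the alpha subunit gene whose loss yeast cells survive, had 815 in bas1, 806 in ino4 and 820.0 in WT (-0.01 in bas1, and 0.12 after rescaling to a common total). SCL1, encoding the first alpha subunit, had 1052 in bas1, 957 in ino4 and 981 in WT. PRE8 (625 in bas1, 594 in ino4 and 549 in WT) and PRE6 (860.4 in bas1, 861 in ino4 and 844 in WT) completed the ring. The ring's median was 0.03 in ino4 minus WT and 0.01 in bas1 minus ino4.

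The beta ring holds the proteolytic subunits. PRE3, PUP1 and PRE2 encode those that cut after acidic, basic and hydrophobic residues, and the other beta genes encode subunits with no active site. PRE3 had 708 FPKM in bas1, 592 in ino4 and 585 in WT. PUP1 had 631 in bas1, 632 in ino4 and 519 in WT. PRE2 had 1048 in bas1, 894 in ino4 and 869 in WT. The differences between bas1 and WT were close to each other in these genes, 0.27, 0.28 and 0.27, whereas in ino4 PUP1 stood at 0.29 and PRE3 and PRE2 at 0.02 and 0.04. The 4 other beta genes had a median of 0.06 in bas1 minus WT and -0.09 in ino4 minus WT, a split by active site that was made after the values were seen. Among them, PRE1 had 1479 in bas1, 1191 in ino4 and 1357 in WT, the widest gap between the mutants in the ring (0.31). PRE7 had 487 in bas1, 454 in ino4 and 501 in WT, below WT in both mutants, although it was above WT in bas1 after rescaling to a common total (0.08). PRE4 had 1458 in bas1, 1341 in ino4 and 1385 in WT, and PUP3 had 676 in bas1, 659 in ino4 and 656 in WT. Their differences from WT lay between -0.05 and 0.07. For the whole beta ring, 6 of 7 genes were higher in bas1 than in WT, against 50.6% of all entries. The ring's median was 0.12 in bas1 minus WT and 0.01 in ino4 minus WT.

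In the base of the regulatory particle, 9 of 10 genes were higher in bas1 than in WT, against 50.6% of all entries. The base had a median of 0.23, the highest of the rings and subcomplexes. The 6 genes RPT1 to RPT6 encode the ATPases that form the unfolding ring, and all 6 were higher in bas1 within a narrow range of 0.17 to 0.27. RPT1 had 1149 FPKM in bas1, 984 in ino4 and 954 in WT. RPT4 had 831 in bas1, 689 in ino4 and 702 in WT. RPT3 had 709.8 in bas1, 628 in ino4 and 631 in WT. In ino4 the ATPase genes spread from -0.03 (RPT4) to 0.16 (RPT5), so the values in ino4 lay near WT for most of them. RPT2 (1231 in bas1, 1093 in ino4 and 1048 in WT), RPT5 and RPT6 (730.0 in bas1, 669 in ino4 and 630.4 in WT) had the same order of genotypes as RPT1.

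The remaining base genes encode scaffolds and ubiquitin receptors. RPN1, a large scaffold that docks ubiquitin-binding shuttles, had 457 FPKM in bas1, 379 in ino4 and 387 in WT. RPN2, the other scaffold, had 576 in bas1, 520.0 in ino4 and 504 in WT. RPN10, a ubiquitin receptor, had 603 in bas1, 586 in ino4 and 502 in WT, so both mutants were above WT (0.26 and 0.22). RPN13, also a ubiquitin receptor, was the one base gene below WT in bas1, with 407 in bas1, 415 in ino4 and 442 in WT (-0.12 in bas1, and 0.005 after rescaling to a common total). On the authors' scale the receptor genes thus lay on opposite sides of WT.

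In the lid, 7 of 9 genes were higher in bas1 than in WT, against 50.6% of all entries, and the median was 0.13. RPN7 had the largest difference of the lid, with 639.5 FPKM in bas1, 550.3 in ino4 and 521 in WT (0.29). RPN5 had 1807 in bas1, 1436 in ino4 and 1502 in WT, and it was the subunit gene with the widest gap between the mutants (0.33). RPN3 had 1154 in bas1, 974 in ino4 and 983 in WT. These encode scaffold subunits of the lid, and in each of them bas1 was the highest genotype. The same held for RPN6, RPN9 and RPN11, whereas RPN12 was highest in ino4 and RPN8 and SEM1 in WT. RPN11 encodes the enzyme that cuts ubiquitin off the substrate and had 662 in bas1, 609 in ino4 and 636 in WT. RPN8, its partner subunit, had 743 in bas1, 689 in ino4 and 821 in WT, below WT in both mutants (-0.14 and -0.25). SEM1 had the lowest difference of all 35 genes in bas1 minus WT (-0.29) but lay near WT in ino4 (-0.02). RPN9 (609 in bas1, 491 in ino4 and 531 in WT) and RPN6 (845 in bas1, 756 in ino4 and 774 in WT) were higher in bas1 and lower in ino4 than in WT. RPN12 had 499.6 in bas1, 505 in ino4 and 469 in WT. In ino4 only RPN7 and RPN12 of the 9 lid genes were above WT, against 49.4% of all entries. The lid median was -0.03 in ino4 minus WT.

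Set side by side, the core and the regulatory particle had medians 0.10 apart in bas1 minus WT and 0.03 apart in ino4 minus WT. The gap depended on the scaling: core minus regulatory particle was -0.10 in bas1 minus WT, and -0.03 after quantile normalization. In bas1 minus ino4 it was -0.07, and -0.12 after quantile normalization. The core genes had a median difference of 0.11 in bas1 minus WT with 11 of 14 higher, and the regulatory particle genes had 0.21 with 16 of 19 higher. In ino4 minus WT the medians were 0.01 (core, 8 of 14 higher) and -0.01 (regulatory particle, 8 of 19 higher). Of all entries, 50.6% were higher in bas1 minus WT and 49.4% in ino4 minus WT. In bas1 minus ino4 they were 0.09 and 0.16. In levels, the mean over the core genes was 1.02 times the mean over the regulatory particle genes in bas1, 1.02 times in ino4 and 1.01 times in WT. The ratio of the medians was 1.07 in bas1, 1.17 in ino4 and 1.17 in WT.

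Gene length moved with the difference in bas1. Core entries were 597 to 867 bp long and regulatory particle entries 270 to 2982 bp. The 14 subunit genes of 1 kb or more, all of the regulatory particle, had a median of 0.23 in bas1 minus WT with 13 higher, and the 19 shorter ones had 0.09 with 14 higher. Over all entries compared the median was 0.05 for those of 1 kb or more, with 57.3% higher. For shorter entries it was -0.09, with 39.8% higher. The subunit genes thus lay above the entries of their own length class in both. The 5 regulatory particle genes under 1 kb had a median of 0.06, against 0.11 for the 14 core genes, which are all under 1 kb. Among genes under 1 kb, with only these 5 of the regulatory particle, the higher median of that particle was not seen. SEM1, RPN10 and RPN13 of these 5, and PRE5 and PUP1 of the core, also lack the Rpn4 motif. Length and motif were not separated here. Across the 33 subunit genes, which share the same combined libraries and are not replicates, Spearman's rho between length and difference was 0.44 in bas1 minus WT and 0.11 in ino4 minus WT. In bas1 minus ino4 rho was 0.52. Over all 6153 entries it was 0.20 in bas1 minus WT, -0.01 in ino4 minus WT and 0.19 in bas1 minus ino4. In bas1 minus ino4 the 5 regulatory particle genes under 1 kb had a median of -0.02, against 0.09 for the core.

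**Figure D3:**
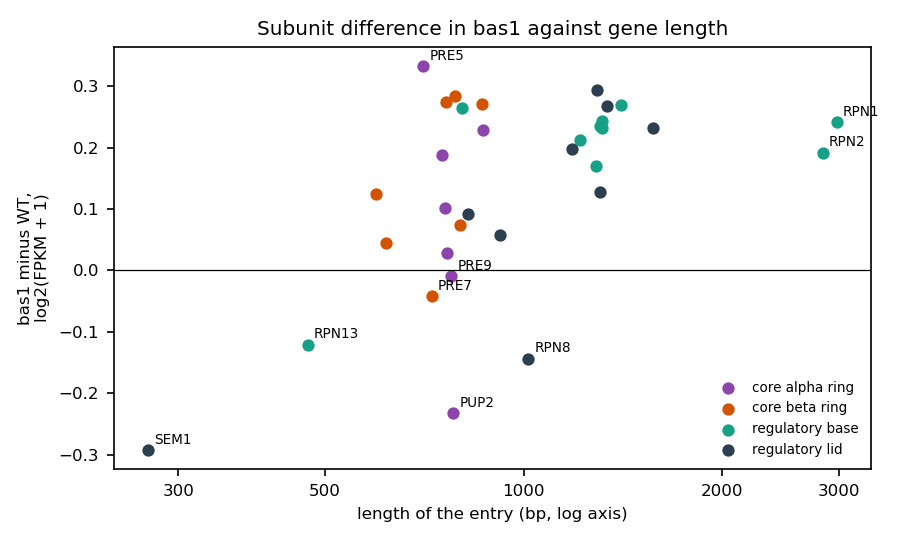
Difference in bas1 minus WT (log2(FPKM + 1)) against entry length (bp, log axis) for the 33 subunit genes, coloured by ring or subcomplex. On the authors' scale the shortest entries, SEM1 and RPN13, lie below 0 (RPN13 at 0.005 after rescaling to a common total), and 13 of the 14 genes of 1 kb or more lie above it.

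RPN4 lay within the range of the subunit genes in bas1 minus WT and below all of them in ino4 minus WT. It had 566 FPKM in bas1, 426 in ino4 and 529 in WT (sacCer2 chromosome IV, 415111 to 416706). Its difference was 0.10 in bas1 minus WT, -0.31 in ino4 minus WT and 0.41 in bas1 minus ino4. In ino4 minus WT it was the lowest of the 35 genes, at a place where 12.3% of all entries lay lower, while the subunit genes had a median of -0.01. Among the 35 levels, highest first, it ranked 28 in bas1, 30 in ino4 and 23 in WT. RPN14, which encodes a chaperone of base assembly, was far below the subunit genes, with 94.0 in bas1, 91.0 in ino4 and 81.1 in WT.

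The subunit genes with the Rpn4 motif had a median of 0.19 in bas1 minus WT with 24 of 27 higher. The 6 without it had 0.07 with 3 of 6 higher, and 50.6% of all entries were higher. The genes without it were split on the authors' scale, with PRE5, PUP1 and RPN10 between 0.26 and 0.33 and SEM1, RPN8 and RPN13 between -0.29 and -0.12. The motif and gene length were not separated here, and length moved with the difference in bas1. Entries without the motif were 270 bp (SEM1) to 1017 bp (RPN8) long, all but RPN8 under 1 kb. Entries with it were 597 bp (PRE1) to 2982 bp (RPN1) long. In ino4 minus WT the median was -0.01 with the motif and 0.08 without it. In bas1 minus ino4 it was 0.15 with the motif (24 of 27 higher) and 0.02 without it (3 of 6 higher). Of all entries, 50.0% were higher in that comparison. Outside the proteasome, 37 genes compared had the motif. Their median was 0.02 in bas1 minus WT with 19 of 37 higher, and -0.01 in ino4 minus WT. The 4966 genes without it had a median of 0.01 in bas1 minus WT, with 51.3% higher.

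**Figure D4:**
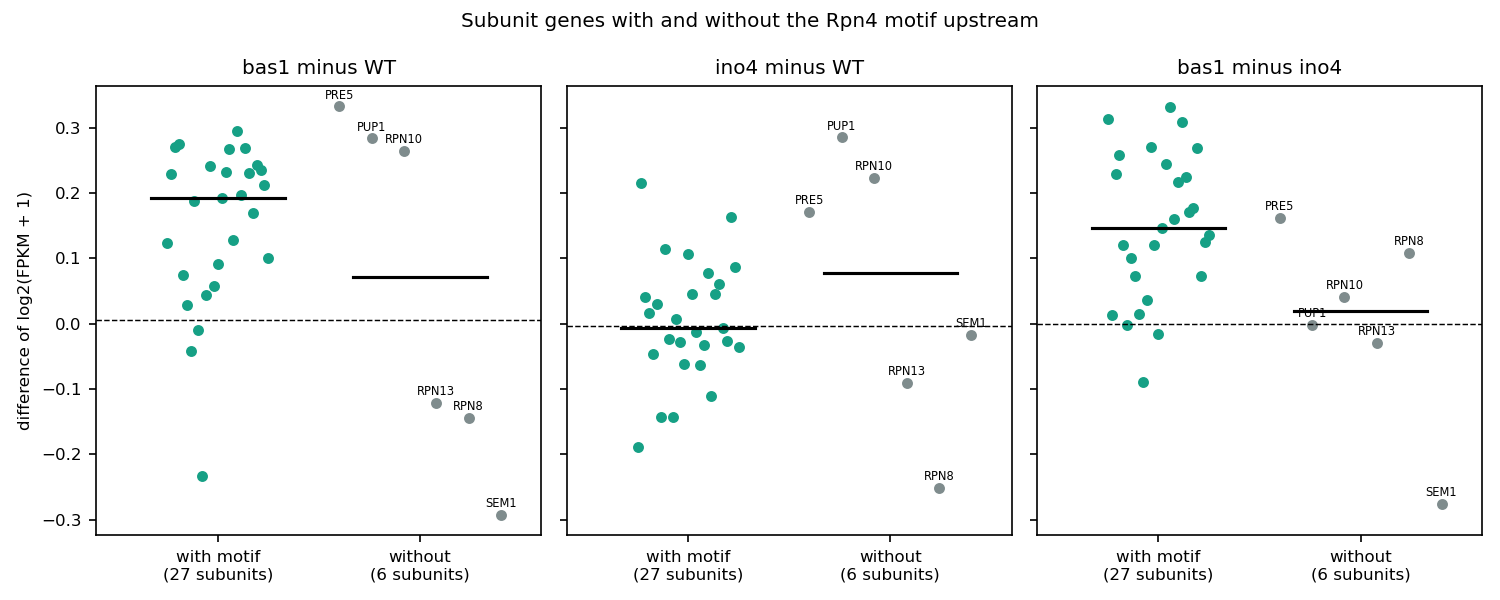
Difference of log2(FPKM + 1) for the 27 subunit genes with GGTGGCAAA in the 300 bases before the start codon and the 6 without it, in the 3 comparisons, with medians as bars and the median of all entries dashed. In bas1 minus WT the genes with the motif centre on 0.19, and of those without it PRE5, PUP1 and RPN10 lie at 0.26 to 0.33 and SEM1, RPN8 and RPN13 below 0. Motif and gene length are not separated here.

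Several members lie close together in the genome. RPT4 and RPN8 on chromosome XV are 2206 bp apart with 1 entry between them, and PRE4 and RPN12 on chromosome VI are 2638 bp apart, also with 1 entry between them. PRE2 and RPN7 on chromosome XVI are 9241 bp apart. The neighbours RPT4 and RPN8 lay on opposite sides of WT in bas1 (0.24 and -0.14), whereas PRE2 and RPN7 were both higher (0.27 and 0.29). No member entry overlaps another entry in the table, and no word of 30 bases of a member gene occurs elsewhere in R64.

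Of the other factors that assemble the proteasome, 4 of 8 were higher in bas1 than in WT (against 50.6% of all entries), with a median of -0.00. UMP1, the chaperone of core maturation, was more abundant than any subunit gene, with 3091 FPKM in bas1, 2745 in ino4 and 2336 in WT. NAS6, a chaperone of base assembly, had 28.5 in bas1, 38.5 in ino4 and 36.5 in WT. PBA1, of an alpha ring chaperone and also named POC1, had 56.8 in bas1, 75.8 in ino4 and 62.7 in WT. IRC25, of another alpha ring chaperone, had 67.5 in bas1, 57.7 in ino4 and 68.3 in WT. The median in ino4 minus WT was 0.06 with 6 of 8 higher, against 49.4% of all entries.

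Of 7 genes for proteins that bind the assembled proteasome, 5 were higher in bas1 (against 50.6% of all entries), with a median of 0.20. In ino4 5 were also higher (against 49.4%), with a median of 0.07. FUB1, which the table names YCR076C, had 263 FPKM in bas1, 257 in ino4 and 207 in WT. HUL5, a ubiquitin ligase, had 128 in bas1, 113 in ino4 and 102 in WT. CIC1 had 21.0 in bas1, 16.5 in ino4 and 23.5 in WT, and its product also works in ribosome assembly.

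A further list held ubiquitin, its activating enzyme, shuttles, and Cdc48 with its partners. Of its 12 genes, 10 were higher in bas1 (against 50.6% of all entries), with a median of 0.27. In ino4 9 of 12 were higher (against 49.4%), with a median of 0.08. The 2 that were lower in bas1 were UBI4 and UBA1, and the 10 that were higher were shuttle genes, CDC48, and genes of its cofactors and of the UFD pathway. The largest difference was at DSK2, a ubiquitin shuttle, with 1190.4 FPKM in bas1, 1118 in ino4 and 801 in WT (0.57 in bas1 and 0.48 in ino4). NPL4, a cofactor of the unfoldase Cdc48, had 179 in bas1, 139 in ino4 and 129 in WT. UBA1, encoding the enzyme that activates ubiquitin, had 138 in bas1, 159 in ino4 and 170.2 in WT (-0.30 in bas1). UBI4, a ubiquitin gene, had 1062 in bas1, 1183 in ino4 and 1135 in WT (-0.10 in bas1, and 0.03 after rescaling to a common total). Neither this list nor the one before it had a member 1.5-fold apart in bas1 or ino4 against WT, though DSK2 came close in bas1 (1.49-fold). Over all entries 3.98% were at least 1.5-fold higher and 7.33% at least 1.5-fold lower in bas1. In ino4 these shares were 2.32% and 4.62%.

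Of the 4 genes listed around degradation of Rpn4, UBR2 and UBR1 were higher in bas1, and MUB1 and RAD6 were lower. None was higher in ino4. The shares of all entries that were higher were 50.6% in bas1 and 49.4% in ino4. Whether Ubr1 acts on Rpn4 was not examined. MUB1, which helps the ligase Ubr2, had 134 FPKM in bas1, 154 in ino4 and 179 in WT, and UBR2 had 71.1 in bas1, 53.8 in ino4 and 55.5 in WT. Of the 4 known activators of RPN4, 2 were higher in bas1 and 2 in ino4, against the same shares of all entries. HSF1, the heat shock factor gene, had 167 in bas1, 158 in ino4 and 133 in WT, but it shares its listed position with another entry. PDR3, a drug resistance regulator gene, had 23.1 in bas1, 22.5 in ino4 and 19.5 in WT.

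The anaphase-promoting complex genes differed more than the proteasome genes. Of 13 listed genes 12 were compared, since APC4 is merged with a neighbour. All 12 were higher in bas1 than in WT, against 50.6% of all entries, with a median of 0.34. In ino4 1 of 12 was higher (CDC16), against 49.4% of all entries, and the median was -0.14. In bas1, 3 of the 12 were at least 1.5-fold higher than in WT, against 3.98% of all entries. APC1, the largest scaffold, had 52.7 FPKM in bas1, 26.5 in ino4 and 28.8 in WT, but it shares its position with other entries. CDC26 had 453 in bas1, 218 in ino4 and 275 in WT. SWM1 had 491 in bas1, 310.2 in ino4 and 315 in WT. In bas1 minus ino4 all 12 were higher, against 50.0% of all entries, and 7 of them were at least 1.5-fold higher, against 6.79%.

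All 8 meiotic markers also lay above WT in bas1 (against 50.6% of all entries), with differences of 0.01 to 0.89 and a median of 0.25. In ino4 4 of 8 were higher (against 49.4%), with a median of 0.03. NDT80, which turns on the middle sporulation genes, had 525 FPKM in bas1, 277 in ino4 and 282 in WT. Their part in the proteasome values was not tested, and a share of cells and a level per cell cannot be told apart in bulk RNA. Ribosomal protein genes had medians of 0.11 in bas1 minus WT (82 of 135 higher) and 0.11 in ino4 minus WT (86 of 135 higher). In bas1 minus WT the core particle median was also 0.11, and that of the regulatory particle was 0.21. Autophagy and vacuolar protease genes had medians of -0.03 in bas1 (15 of 32 higher) and 0.06 in ino4 (18 of 32 higher). The shares of all entries that were higher were 50.6% in bas1 and 49.4% in ino4.

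**Figure D5:**
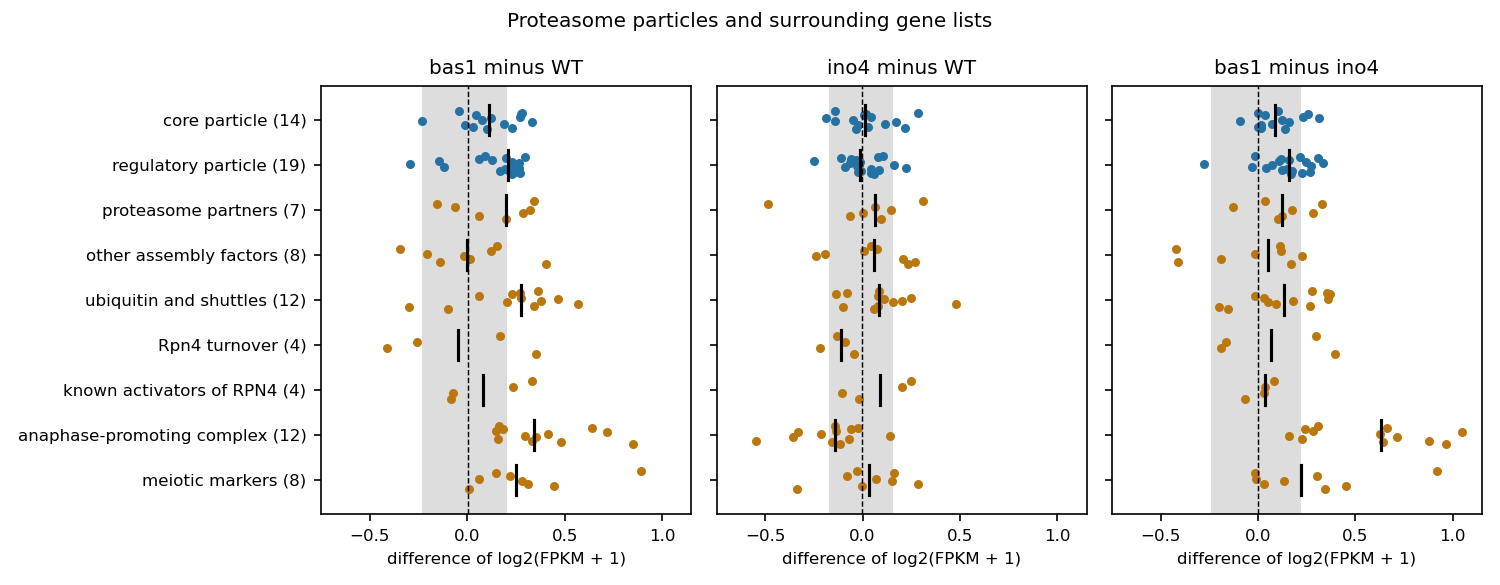
Difference of log2(FPKM + 1) of the core and regulatory particle genes (blue) and of the surrounding lists (ochre) in the 3 comparisons, 1 point per gene with bars at the medians and the interquartile range of all entries in grey. The anaphase-promoting complex genes have medians of 0.34, -0.14 and 0.63, farther from 0 than either particle.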

How the data were processed

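RNA was sequenced from 6 meiotic cultures of 3 genotypes, 2 samples each. Per the labels' protocols, total RNA was isolated by phenol extraction and an Illumina kit was used for the libraries. STAR, Cufflinks and the build sacCer2 are named per the submitters' processing notes. The sources used here do not give versions, settings, strand use or how a genotype's samples were combined. The authors deposited FPKM values, 1 column per genotype per the file headers. The smallest values were checked for whole reads: at best 18.9% (bas1), 19.8% (ino4) and 17.1% (WT) of 400 low values came out whole within 0.05 reads, so reads could not be recovered and depth and intervals are unknown.

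Values were taken as log2(FPKM + 1) and subtracted between genotypes, with no test, since the planned limma test needs a value per sample. Entries with an FPKM of at least 1 in 1 genotype and above 0 in all were kept (6153). The limits were 1.5-fold and 2-fold on this scale. The members, lists and limits were chosen with earlier results of these data known. Within each ring or subcomplex, members with the highest and lowest differences were named, and from each further list those past 1.5-fold or else the largest. Older symbols were matched through RefSeq R64; 1 list gene (APC4) had no single entry. All 35 members have the same length in R64, but 5 the same start, so R64 coordinates are not given. Promoter windows were read from R64 by its own annotation. Steps were tested on simulated data with planted changes larger than any difference of the members. Recovery of differences as small as theirs was not tested. Python 3.11.15, pandas 2.3.3 and NumPy 2.4.6 were used.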

Additional observations from a re-analysis of the deposited data

How the results depend on the processing

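Settings tried were pseudocounts of 0.1 and 5, no filter, a filter at an FPKM of 5, median, quantile and trimmed-mean scaling, and entries that share no position. After seeing the data, entries of at least 300 bp and rescaling to a common total were added. Bas1 stayed above WT for 29 to 32 of the 35 genes, or 29 of 34 with entries of at least 300 bp, and above ino4 for 29 to 34, and no member became 1.5-fold apart. The one setting that moved these values by over 0.1 was the common total, which moved the median of all entries to 0.13 in bas1 minus WT. The FPKM total was 1.05e+06 in bas1, 1.14e+06 in ino4 and 1.15e+06 in WT. The highest entry was SED1 in bas1 (17387). In ino4 (51301.5) and WT (56536.4) it was a merged entry, YDR133C with YDR134C. These highest entries were not among the 6153 compared, which held 98.3% of the total in bas1, 95.2% in ino4 and 94.9% in WT. The common total was taken over all entries, so it also rests on entries left out of the comparison. A total over the compared entries alone was not tried. Why the totals differed was not tested. Under the common total the members had 0.32, the core 0.24, the regulatory particle 0.34 and RPN4 0.22 in bas1 minus WT, and 0.24, 0.20, 0.28 and 0.53 in bas1 minus ino4. Relative to all entries the members were at 0.19 in bas1 minus WT under it, as before, and at 0.13 in bas1 minus ino4. The median in ino4 minus WT crossed 0, to 0.00 under the common total and with entries of at least 300 bp. Under quantile scaling the core median in ino4 minus WT was -0.01, and core minus regulatory particle was -0.03 in bas1 minus WT and -0.12 in bas1 minus ino4. Of 2421 values of single genes, 167 moved by over 0.1 and 24 changed sign; under the common total PRE7, PRE9 and RPN13 were above WT in bas1 (0.08, 0.12 and 0.005). The shorter motif word gave 27 subunit genes. No paired analysis was possible because the table has 1 column per genotype, and leaving out replicates was not possible either. Unknown depth limits low values most, and members are far above them.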
